A study of Mus musculus with 16 samples.

Results

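Doxorubicin was compared with vehicle in cultured mouse articular chondrocytes, the cells that make and maintain joint cartilage. By their labels all were primary cells, cultured in 3% oxygen with 10% fetal bovine serum in the medium, and each group had 4 RNA sequencing libraries. The doxorubicin group received 50 nM doxorubicin for 5 days, with fresh medium every 48 h. The vehicle group is described only beside the cytokine treatment, as an equal volume of phosphate-buffered saline for 24 h. The time of its harvest relative to the 5 days of doxorubicin is not given, so days in culture and drug cannot be told apart in this comparison. Another 8 libraries of the same series were used only to show where doxorubicin differed from other agents. They were 4 from cells given bleomycin at 50 µg/mL for 24 h and then fresh medium for 5 days, after hyaluronidase at 4 U/mL for 4 h, and 4 from cells given interleukin-1 beta (IL-1β) at 1 ng/mL for 24 h. The strain, age and number of mice, and whether replicates were separate cultures, are not stated, so the p-values here measure the spread between these libraries, which may be technical.

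Doxorubicin is an anthracycline that traps topoisomerase II on cut DNA and also displaces histones from chromatin. Cells with lasting DNA damage can stop dividing for good, a state called senescence, in which the p53 pathway holds the cell cycle, the nuclear lamina loses lamin B1, and secreted proteases and cytokines accumulate. In cartilage, cells in this state are studied for their link to ageing and osteoarthritis, and the study used doxorubicin to induce it.

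The measured unit was FPKM, the number of fragments mapped to a gene per kilobase of its length, scaled to the mapped fragments of the library. All 8 doxorubicin and vehicle libraries, of 16 in the series, were compared over 12389 of 55450 listed genes, those that reached 1 FPKM in 4 or more of the 8. The test was limma on log2(FPKM + 1), fitted to all 16 libraries in their 4 groups, and a gene was called at a Benjamini-Hochberg adjusted p under 0.05. Differences are given as the mean log2(FPKM + 1) in doxorubicin minus that in vehicle, with the standard error (SE), and they understate the change of genes with low FPKM. Depth, read from the steps between low FPKM values, was estimated at 17050000 to 21860000 fragments in doxorubicin libraries and 15860000 to 19510000 fragments in vehicle libraries. Between 12356 and 12445 genes reached 1 FPKM in doxorubicin libraries, against 12014 to 12067 in vehicle libraries. Pearson correlations of log2 values were 0.9855 to 0.9898 within doxorubicin, 0.9864 to 0.9905 within vehicle and 0.9405 to 0.9532 between the groups. The first principal component held 70.5% of the variance and separated the 2 groups, and the second held 6.4% and was highest in vehicle replicate 3.

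The cells carried the defining genes of chondrocytes in both groups. Col2a1, which encodes the collagen II chain of cartilage, had 6208, 6779, 7388 and 5605 FPKM in doxorubicin libraries, against 8163, 9054, 10625 and 8040 FPKM in vehicle libraries. Its 4 doxorubicin values all lay below the 4 vehicle values, yet it stayed among the 5 most abundant genes of both groups. Sox9, the transcription factor that directs cartilage genes, had 45.1, 44.9, 51.2 and 45.8 FPKM in doxorubicin libraries, against 57.9, 55.4, 59.2 and 56.6 FPKM in vehicle libraries. Defining genes of blood and vessel cells were at or near 0: Ptprc, the pan-leukocyte marker, reached at most 0.0143 FPKM in doxorubicin libraries and 0.0216 FPKM in vehicle libraries. The endothelial marker Pecam1 was at 0.12 to 0.201 FPKM in doxorubicin libraries, against 0.0532 to 0.208 FPKM in vehicle libraries, and the lymphocyte markers Cd3e and Ms4a1 were listed at 0 in all 8 libraries. As these are bulk cultures, fewer cells of a kind and less RNA per cell cannot be told apart.

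Doxorubicin-treated chondrocytes differed from vehicle cells in a large share of the genes tested. Most tested interferon-stimulated, antigen presentation, complement, matrix protease, p53 target and lysosome genes were higher. Most tested genes of cell division, DNA replication, the ATF4 amino acid response and cholesterol synthesis were lower, as was lamin B1. Aggrecan and the hypertrophy collagen were lower as well, but the lists they belong to moved in both directions. Of 28 tested cartilage matrix genes 8 were higher and 10 lower, and of 15 tested hypertrophy and mineralization genes 8 were higher and 5 lower. Of the 12389 genes, 6102 were called (49.3%), 3167 of them higher (25.6%) and 2935 lower (23.7%). The median size of the called differences was 0.47, and the median difference over all genes tested was 0.015. Differences of at least 2-fold were called for 708 genes (5.71%), 466 higher (3.76%) and 242 lower (1.95%), and 64 genes were at least 4-fold higher while 3 were at least 4-fold lower. In 5571 genes (45%) the 4 doxorubicin values did not overlap the 4 vehicle values, 2935 of them above (23.7%) and 2636 below (21.3%). With 1 in every 4 genes higher and nearly as many lower, a count of list members is read below against these shares. Because 225 genes passed the filter with all vehicle values under 1 FPKM, and so had to be higher to be tested at all, the number of such genes is given for each list where it is above 0. The members of a list that passed are called its tested members.

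**Figure D1:**
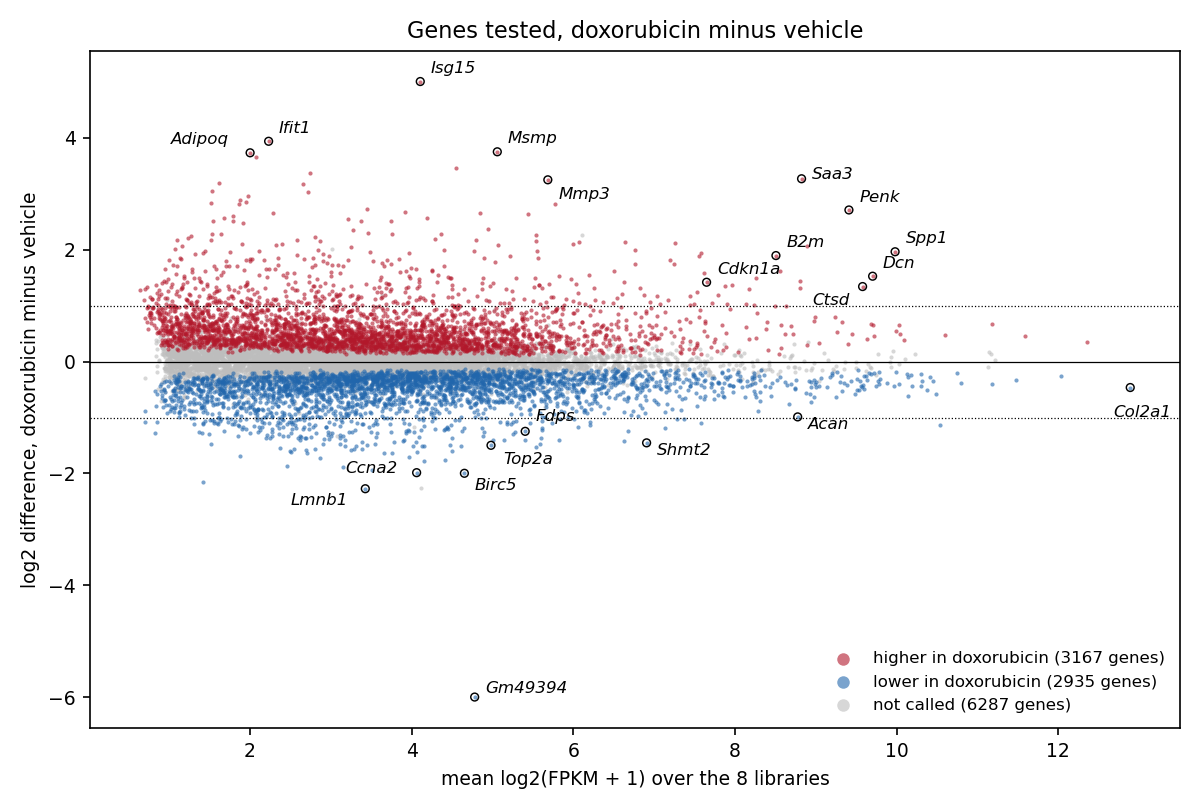
Difference between doxorubicin and vehicle (mean log2(FPKM + 1), doxorubicin minus vehicle, vertical axis) against the mean log2(FPKM + 1) of the 8 libraries (horizontal axis) for the 12389 genes tested; red points were called higher, blue points lower and grey points not called. The largest increases lie at Isg15, Ifit1, Msmp and Adipoq, and the labelled decreases include the division genes Ccna2, Birc5 and Top2a, the lamin gene Lmnb1 and Gm49394, the lowest point.

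The 10 largest increases without overlap between the groups were Isg15, Ifit1, Msmp, Adipoq, Usp18, Bst2, Xaf1, Saa3, Mmp3 and Cfd. Of these, 5 are interferon-stimulated genes, and Msmp encodes a microseminoprotein, a small secreted protein. Msmp (chr4:43583216-43584494 on GRCm38, minus strand) had 108, 119, 118 and 143 FPKM in doxorubicin libraries, against 8.08, 11.7, 8.9 and 4.98 FPKM in vehicle libraries. Every doxorubicin value was above every vehicle value, with a difference of 3.75 ± 0.19 (SE; adjusted p = 2.25e-10, limma). Penk, which encodes the opioid precursor proenkephalin, had 1621, 1682, 1750 and 1916 FPKM in doxorubicin libraries, against 229, 250, 330 and 261 FPKM in vehicle libraries. With a mean 6.51 times that of vehicle, it rose without overlap (2.71 ± 0.10, adjusted p = 9.01e-12). Kctd12, which encodes an auxiliary subunit of GABA-B receptors, had 6.82, 7.27, 8.45 and 6.69 FPKM in doxorubicin libraries and was listed at 0 in all 4 vehicle libraries. No fold can be given for it, and an exact 0 in an FPKM table can be a failed estimate. In all, 5 genes had at least 1 FPKM in all 4 doxorubicin libraries and under 0.1 FPKM in all 4 vehicle libraries (Kctd12, Cfd, Mx2, Serpinb9b and Stfa3), and 0 genes showed the reverse.

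The 10 largest decreases without overlap were Gm49394, Lmnb1, Snord16a, Birc5, Ccna2, Klk10, Bub1b, Cdca7, Hmgb2 and Tk1. Lmnb1, the lamin B1 gene, had 3.64, 4.22, 4.43 and 3.36 FPKM in doxorubicin libraries, against 24.4, 22.9, 19.5 and 24 FPKM in vehicle libraries. Klk10, a kallikrein-related serine protease gene, had 4.91, 6.03, 4.88 and 3.75 FPKM in doxorubicin libraries, against 22.4, 26.6, 22.8 and 15 FPKM in vehicle libraries. Both genes showed a wide gap between the groups, and apart from Gm49394 and Snord16a the other 6 belong to cell division, replication or chromatin. The value of Gm49394 is not reliable: it shares its stretch of chromosome 7 with Igf2 on the same strand, and it had 71.9, 0.0732, 0.724 and 0.0377 FPKM in doxorubicin libraries, against 183, 151, 446 and 185 FPKM in vehicle libraries. Snord16a, a small nucleolar RNA inside Rpl4, varied in the same way, with 1.59 FPKM in doxorubicin replicate 1 and at most 0.00417 FPKM in the other doxorubicin libraries.

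**Figure D2:**
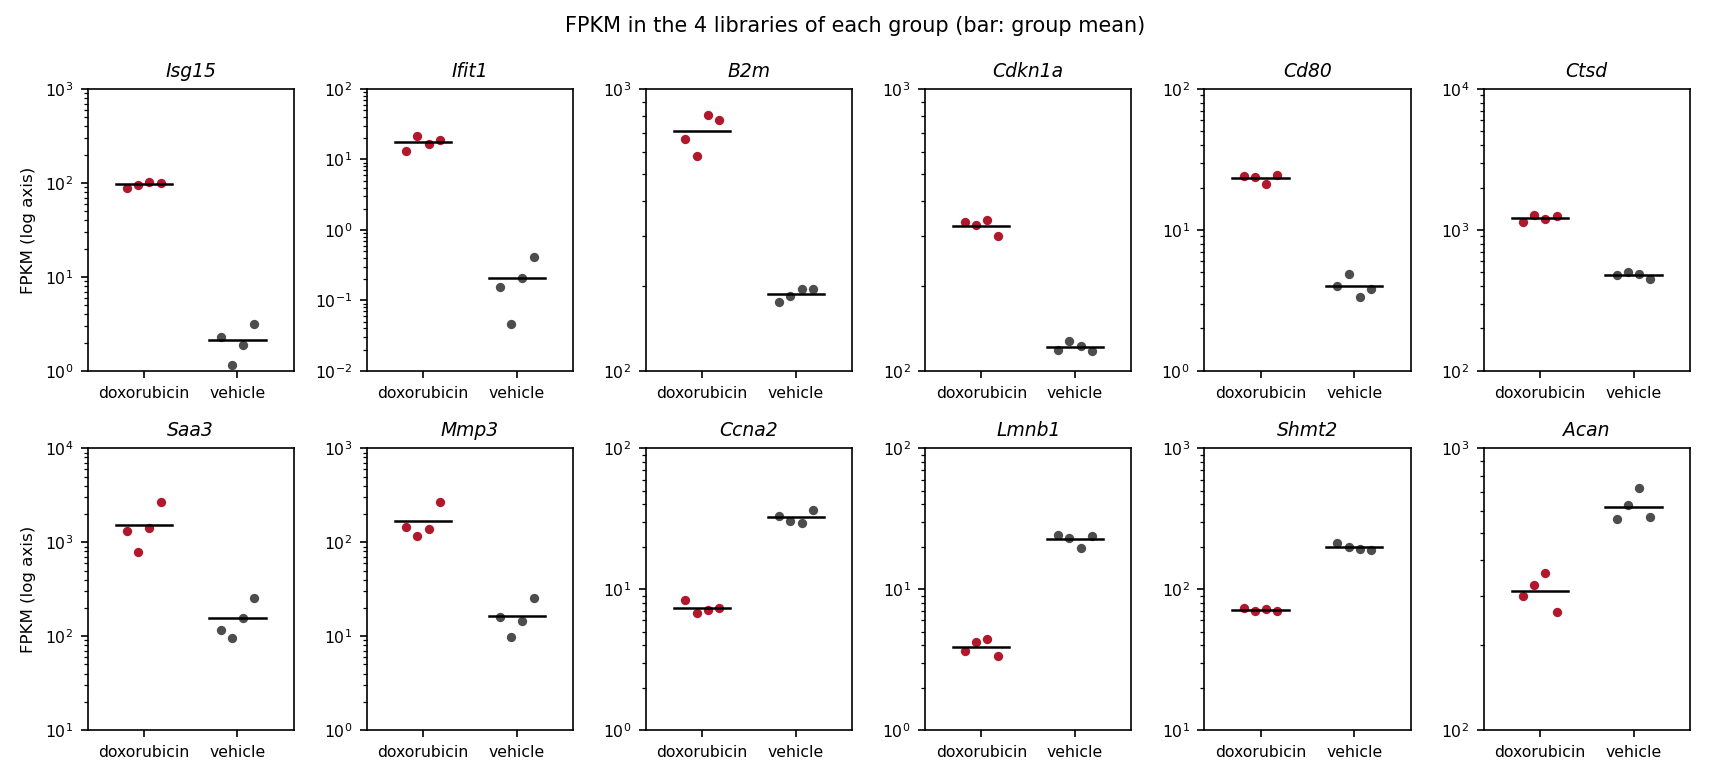
FPKM (log axis) of 12 genes in each of the 4 doxorubicin libraries (left in each panel) and the 4 vehicle libraries (right), with 1 point per library and a bar at the group mean. In each of the 12 genes the 2 groups of points do not overlap, with doxorubicin above vehicle in Isg15, Ifit1, B2m, Cdkn1a, Cd80, Ctsd, Saa3 and Mmp3 and below it in Ccna2, Lmnb1, Shmt2 and Acan.

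Interferon-stimulated genes had the highest median difference of the lists tested. Type I interferons signal through the receptor subunits Ifnar1 and Ifnar2 to transcription factors, Stat2 and Irf9 among them, which bind an interferon-stimulated response element in the promoters of many genes that restrict viruses. Isg15 (chr4:156199424-156200818, minus strand), which encodes a ubiquitin-like modifier, had 88.4, 96.3, 103 and 99.2 FPKM in doxorubicin libraries, against 2.31, 1.17, 1.88 and 3.13 FPKM in vehicle libraries. Ifit1 (chr19:34640871-34650009, plus strand), which encodes a sensor of foreign RNA caps, had 13.3, 21.8, 16.6 and 18.9 FPKM in doxorubicin libraries, against 0.156, 0.046, 0.21 and 0.415 FPKM in vehicle libraries. Bst2 (chr8:71534255-71537456, minus strand), which encodes tetherin, a protein that holds budding viruses at the cell surface, had 74.8, 54.4, 97.9 and 88.1 FPKM in doxorubicin libraries, against 5.04, 5.93, 6.07 and 7.4 FPKM in vehicle libraries. The groups lay far apart in all 3 genes, with differences of 5.01 ± 0.21 for Isg15 (adjusted p = 3.71e-11), 3.94 ± 0.17 for Ifit1 (adjusted p = 6.67e-11) and 3.47 ± 0.20 for Bst2 (adjusted p = 8.97e-10). The promoter stretches of these 3 genes are shown because they carry the letters of the response element. Each lies upstream of the start and is read on the gene's own strand, from the RefSeq promoter table of build GRCm38.p6. Capitals mark matches to GAAA, any 2 bases and GAAA, or to the reverse complement.
Isg15, chr4:156200850-156200909, minus strand: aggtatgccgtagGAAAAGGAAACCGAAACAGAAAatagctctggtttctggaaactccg
Ifit1, chr19:34640779-34640838, plus strand: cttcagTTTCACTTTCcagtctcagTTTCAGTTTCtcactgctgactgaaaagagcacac
Bst2, chr8:71537562-71537621, minus strand: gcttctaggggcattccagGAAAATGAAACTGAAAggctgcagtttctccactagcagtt

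In Isg15 3 overlapping matches run together, in Bst2 2 matches overlap, and in Ifit1 2 separate matches stand on the other strand. The letters were searched on both strands from 250 bases before to 50 bases after each start. They were found in 15 of the 31 interferon-stimulated genes with a promoter in the table (48.4%), against 3.99% of all 27025 promoters in it and 3.58% of the 9327 of tested genes. A match describes letters and not a bound site.

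Of 43 interferon-stimulated genes in the list, 33 were tested, and 33 rose, 30 of them at least 2-fold, against 25.6% higher over all genes tested. The median difference was 2.11. Of the 33, 15 had all vehicle values under 1 FPKM, and 5 members reached 1 FPKM in no library. Usp18, which removes Isg15 from its targets, had 10.7, 17.3, 14.9 and 14 FPKM in doxorubicin libraries, against 0.145, 0.0351, 0.416 and 0.185 FPKM in vehicle libraries. The apoptosis-associated gene Xaf1 had 22.8, 16, 20.6 and 23.8 FPKM in doxorubicin libraries, against 0.677, 1.24, 1.02 and 1.46 FPKM in vehicle libraries. Neither gene had overlapping values. The regulators of the pathway rose with their targets: Irf7, which amplifies interferon transcription, had 8.35, 10.5, 8.94 and 12.8 FPKM in doxorubicin libraries, against 0.521, 0.0679, 0.517 and 0.604 FPKM in vehicle libraries. Stat2 rose by a difference of 1.81 ± 0.16 and Irf9 by 1.77 ± 0.18. The smallest rise of the list was in Ifit2, at 7.05, 8.32, 7.23 and 6.93 FPKM in doxorubicin libraries against 5.82, 6.17, 4.95 and 5.91 FPKM in vehicle libraries (0.32 ± 0.10, adjusted p = 0.0144), and this call was lost without doxorubicin replicate 2 (adjusted p = 0.0516) or vehicle replicate 3 (adjusted p = 0.0505). Irf7, Stat2, Irf9 and Ifit2 were named after their values were seen. Ifit1 and its near copies can share reads, and so can the Oas1 genes.

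No interferon gene of the list reached 1 FPKM in any of the 8 libraries. Ifnb1, the interferon-beta gene, was listed at 0 in 7 libraries and at 0.0795 FPKM in doxorubicin replicate 4, and Ifng was listed at 0 in 7 libraries and at 0.0403 FPKM in the same library. Ifna4 and Ifnl2 were listed at 0 in all 8. Among 28 genes of interferons, nucleic acid sensors and nucleases, 19 were tested, 11 of them higher, 3 lower and 5 not called, with a median of 0.29, and 9 members reached 1 FPKM in no library. Trex1, the exonuclease that degrades cytosolic DNA, had 5.2, 7.22, 8.44 and 11.1 FPKM in doxorubicin libraries, against 1.47, 5.48, 3.89 and 2.79 FPKM in vehicle libraries. Its values overlapped between doxorubicin replicate 1 and vehicle replicate 2, though it was called (1.07 ± 0.30, adjusted p = 0.00773). Tlr3, the endosomal receptor for double-stranded RNA, had 3.54, 2.19, 3.73 and 4.96 FPKM in doxorubicin libraries, against 1.31, 1.11, 0.774 and 1.53 FPKM in vehicle libraries. Adar, the RNA-editing enzyme that marks self double-stranded RNA, was also higher (1.05 ± 0.13, adjusted p = 3.66e-06). Cgas, the cytosolic DNA sensor, stayed under the filter, at 0.411 to 0.625 FPKM in doxorubicin libraries against 0.718 to 0.835 FPKM in vehicle libraries. Sting1, its adaptor, had 9.72, 7.77, 11.3 and 14.9 FPKM in doxorubicin libraries, against 10.8, 9.9, 9.09 and 8.28 FPKM in vehicle libraries, and was not called (adjusted p = 0.49). The nuclease gene Samhd1 fell to 29.3, 31.4, 29.6 and 32 FPKM in doxorubicin libraries, against 49.7, 46.2, 42.7 and 42.8 FPKM in vehicle libraries. Sting1 and Samhd1 were named after their values were seen.

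Genes that present antigen on MHC class I were raised at high absolute levels. Class I molecules display peptides that the proteasome cuts and the Tap transporter carries into the endoplasmic reticulum, with B2m as their shared light chain. B2m (chr2:122147686-122153083, plus strand) had 665, 577, 806 and 779 FPKM in doxorubicin libraries, against 176, 185, 196 and 195 FPKM in vehicle libraries. The heavy chain gene H2-D1 had 375, 347, 414 and 365 FPKM in doxorubicin libraries, against 98.6, 97.5, 101 and 90 FPKM in vehicle libraries. Psmb8, an inducible catalytic subunit of the immunoproteasome, had 5.8, 5.55, 5.86 and 5.35 FPKM in doxorubicin libraries, against 0.719, 0.499, 0.534 and 1.16 FPKM in vehicle libraries. None of the 3 had overlapping values, and their differences were 1.89 ± 0.11, 1.94 ± 0.09 and 1.96 ± 0.11 in that order. Of 22 genes in the list 21 were tested, 19 of them higher, 14 at least 2-fold, 0 lower and 2 not called, with a median of 1.39 and 3 whose vehicle values were all under 1 FPKM. The transporter subunits Tap1 (1.65 ± 0.11) and Tap2 (1.73 ± 0.09), and Nlrc5, the transcriptional activator of class I genes (1.39 ± 0.17), rose as well and were named after their values were seen. The subunits Psme2 and Tapbpl, of the proteasome activator and of peptide loading, were not called. The H2 class I genes are close copies of each other, and their reads can be divided among them in ways the tables do not show. Letters of the interferon response element were present in 5 of 19 promoters of the list (26.3%).

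Guanylate-binding proteins and immunity-related GTPases, which attack the vacuoles of intracellular microbes, followed the same direction from a low base. Igtp had 6.88, 7.57, 7.52 and 7.23 FPKM in doxorubicin libraries, against 0.422, 0.338, 0.471 and 0.598 FPKM in vehicle libraries. It overlaps Irgm2 on the same strand, so the 2 values are not independent. Irgm1, which regulates this family, had 20.1, 16.6, 15 and 22.9 FPKM in doxorubicin libraries, against 3.92, 3.58, 3.29 and 3.98 FPKM in vehicle libraries. Of 19 genes in the list only 6 were tested, and all 6 tested rose at least 2-fold. For 4 of them every vehicle value was under 1 FPKM, and 11 members reached 1 FPKM in no library. Their summed level was 49.8 to 64.1 FPKM in doxorubicin libraries, against 6.3 to 9.77 FPKM in vehicle libraries.

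**Figure D3:**
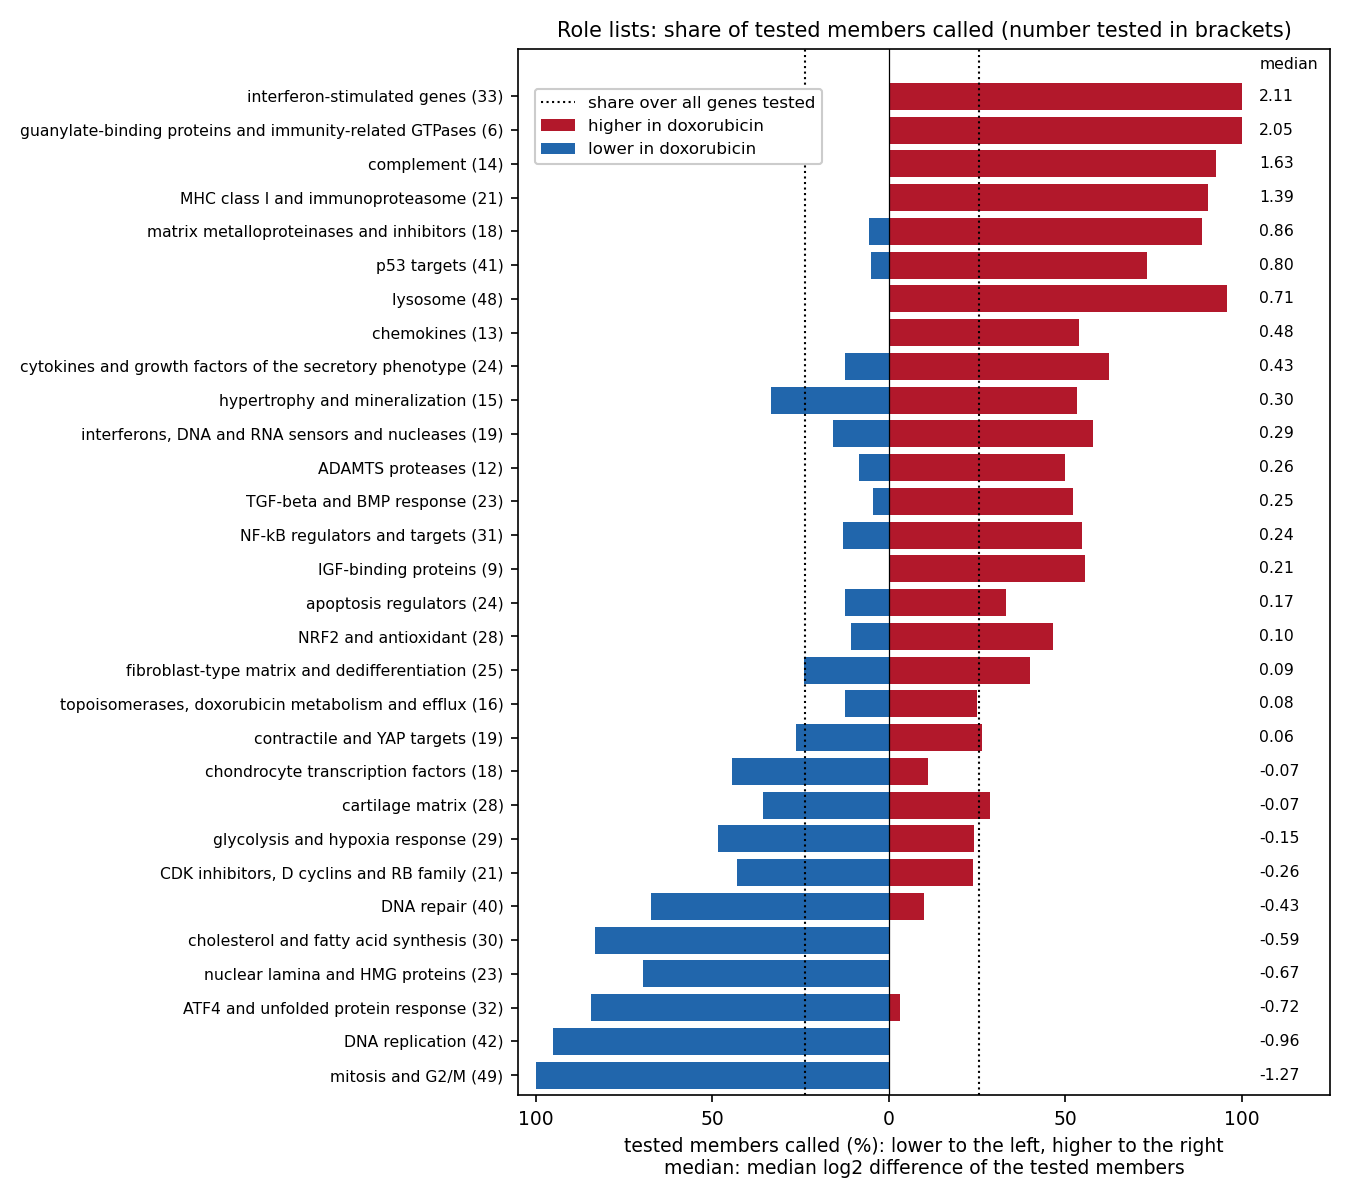
Share of the tested members of each of 30 lists of genes by role that was called higher (red, to the right) or lower (blue, to the left) in doxorubicin than in vehicle, with the number tested in brackets, the median log2 difference at the right edge, and dotted lines at the shares over all genes tested (25.6% higher, 23.7% lower). Interferon-stimulated genes stand at the top with 33 of 33 higher and mitosis genes at the bottom with 49 of 49 lower.

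Genes of cell division were lower without exception among those tested. Progress from DNA replication to mitosis depends on cyclin A2 and cyclin B with their kinase Cdk1, on the chromosomal passenger protein survivin (Birc5) and on the spindle checkpoint kinase Bub1b. Ccna2 (chr3:36564865-36572150, minus strand), the cyclin A2 gene, had 8.36, 6.78, 7.13 and 7.39 FPKM in doxorubicin libraries, against 33.1, 30.6, 29.4 and 36.3 FPKM in vehicle libraries. Plk1, the polo-like kinase of mitotic entry, had 9.47, 8.58, 6.35 and 6.73 FPKM in doxorubicin libraries, against 31.3, 26.7, 25.1 and 26.4 FPKM in vehicle libraries. Both lay well below vehicle, by 1.99 ± 0.08 for Ccna2 (adjusted p = 1.8e-11) and 1.70 ± 0.10 for Plk1 (adjusted p = 1.82e-09) on the log2 scale. Of 50 genes of mitosis and the G2/M transition 49 were tested and 49 fell, 36 of them at least 2-fold, against 23.7% lower over all genes tested, with a median of -1.27. The proliferation marker Mki67 had only 1.75, 1.37, 1.13 and 1.61 FPKM in doxorubicin libraries, against 5.03, 6.63, 2.88 and 4.73 FPKM in vehicle libraries. Division genes were not silent in doxorubicin cells: the summed level of the list was 338 to 388 FPKM, against 865 to 1020 FPKM in vehicle libraries.

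Replication genes fell by smaller amounts. Of 42 genes, 42 were tested, 40 fell, 19 of them at least 2-fold, and 2 were not called, with a median of -0.96. Tk1, the thymidine kinase of S phase, had 12.6, 10.9, 11.2 and 8.15 FPKM in doxorubicin libraries, against 43.1, 43.6, 36.2 and 31.6 FPKM in vehicle libraries. Mcm5, a subunit of the replicative helicase, had 8.6, 9.78, 7.52 and 8.43 FPKM in doxorubicin libraries, against 30.1, 31, 25.3 and 27 FPKM in vehicle libraries. The values of both genes were clearly separated. Pcna, the sliding clamp, fell less, to 28.9, 27.6, 28.7 and 27.1 FPKM in doxorubicin libraries against 47.9, 47.6, 38.9 and 43.8 FPKM in vehicle libraries (-0.64 ± 0.07), and was named after its values were seen. The 2 genes not called were Rfc3, a clamp loader subunit, and Fen1, the flap endonuclease. Fen1 had 7.66, 7.69, 6.79 and 6.06 FPKM in doxorubicin libraries, against 14.2, 13.2, 10.9 and 4.7 FPKM in vehicle libraries, where replicate 4 alone lay below all doxorubicin values.

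Periodic genes of mitosis often carry a cell cycle homology region, and genes of replication a binding site for E2F factors. Stretches of 1 mitosis gene and 2 helicase subunits are shown for these letters, on the gene's own strand, with TTTGAA (Cdc20) and TTTGGCGC or its reverse complement (Mcm5 and Mcm6) in capitals. Cdc20, the activator of the anaphase-promoting complex, was chosen for its match.
Cdc20, chr4:118437344-118437386, minus strand: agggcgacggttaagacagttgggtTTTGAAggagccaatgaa
Mcm5, chr8:75109335-75109392, plus strand: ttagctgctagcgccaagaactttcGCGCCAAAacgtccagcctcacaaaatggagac
Mcm6, chr1:128359720-128359777, minus strand: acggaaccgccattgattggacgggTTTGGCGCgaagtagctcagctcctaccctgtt

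The letters TTTGAA were found, on either strand, in 28 of 41 mitosis promoters (68.3%) and in 5 of 34 replication promoters (14.7%), against 20.2% of all promoters in the table and 14.1% of those of tested genes. The letters TTTGGCGC or TTTCCCGC were found in 12 of 34 replication promoters (35.3%) and in 2 of 41 mitosis promoters (4.88%), against 1.8% of all and 3.6% of those of tested genes. Cdc20 had 15, 14.9, 12.7 and 11.4 FPKM in doxorubicin libraries, against 43.4, 42.4, 36.3 and 38.8 FPKM in vehicle libraries. Mcm6 had 9.87, 10.5, 8.15 and 9.84 FPKM in doxorubicin libraries, against 32.7, 30.3, 26.3 and 26.9 FPKM in vehicle libraries. Both genes were without overlap, by 1.51 ± 0.09 and 1.50 ± 0.08 below vehicle on the log2 scale.

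The nuclear lamina and chromatin proteins fell in part. Of 23 tested genes of the lamina, high mobility group proteins and heterochromatin, 16 fell, 8 at least 2-fold, 0 rose and 7 were not called, with a median of -0.67. Hmgb2, a DNA-bending chromatin protein, had 7.84, 8.12, 8.56 and 9.98 FPKM in doxorubicin libraries, against 35.4, 32.5, 28.5 and 32 FPKM in vehicle libraries. Lbr, the lamin B receptor that anchors heterochromatin, had 5.15, 4.86, 4.51 and 3.78 FPKM in doxorubicin libraries, against 14.7, 13.8, 12.8 and 13.3 FPKM in vehicle libraries. Lmna, which encodes lamins A and C, had 207, 156, 144 and 215 FPKM in doxorubicin libraries, against 204, 157, 196 and 141 FPKM in vehicle libraries, and was not called (0.04 ± 0.15, adjusted p = 0.831). Lmnb1 and Lmna thus gave different calls, a difference between genes that was not itself tested.

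DNA repair genes were mostly lower. Of the isoforms of the drug's own target, Top2a was called lower and Top2b was not called, a contrast between genes that was not tested. Of 40 tested repair genes 27 fell, 4 rose and 9 were not called, with a median of -0.43, and 2 of the 40 had all doxorubicin values under 1 FPKM. Exo1, a resection nuclease, had 0.885, 0.712, 0.547 and 0.561 FPKM in doxorubicin libraries, against 3.22, 3.26, 2.14 and 3.62 FPKM in vehicle libraries. Mgmt, which removes alkyl groups from guanine, went the other way, with 9.06, 7.28, 8.45 and 8.49 FPKM in doxorubicin libraries against 3.1, 2.79, 2.58 and 2.83 FPKM in vehicle libraries. Neither gene overlapped between groups. Top2a, the topoisomerase II isoform of dividing cells, had 20.2, 18, 15.2 and 18.1 FPKM in doxorubicin libraries, against 57.6, 54.8, 41.7 and 55.8 FPKM in vehicle libraries (-1.50 ± 0.10, adjusted p = 7.44e-09). Top2b, the isoform found in resting cells too, had 14.4, 14, 13.6 and 14.5 FPKM in doxorubicin libraries, against 12, 15.5, 9.64 and 13.8 FPKM in vehicle libraries, and was not called (0.16 ± 0.14, adjusted p = 0.368). Of the 16 tested genes of topoisomerases, drug metabolism and efflux, 4 were higher, 2 lower and 10 not called, shares below those of all genes in the lower direction (23.7%) and near them in the higher one (25.6%). Under the filter, Abcb1a had 0.699 to 1.01 FPKM in doxorubicin libraries against 0.139 to 0.457 FPKM in vehicle libraries. Akr1c13 had 0.539 to 1.38 FPKM in doxorubicin libraries against 0 to 0.0822 FPKM in vehicle libraries, while the values of Akr1c14 overlapped. Xdh, xanthine dehydrogenase, which can reduce anthracyclines, had 13.9, 13, 13.6 and 21 FPKM in doxorubicin libraries, against 6.75, 5.65, 7.24 and 9.27 FPKM in vehicle libraries.

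Targets of p53 were higher, while the p53 gene itself was lower. Of 41 tested targets 30 rose, 15 of them at least 2-fold, 2 fell and 9 were not called, with a median of 0.80, and 2 had all vehicle values under 1 FPKM. Cdkn1a (chr17:29090976-29100727, plus strand), which encodes the cyclin-dependent kinase inhibitor p21, had 337, 328, 342 and 302 FPKM in doxorubicin libraries, against 119, 128, 123 and 118 FPKM in vehicle libraries. Cd80, a T cell co-stimulatory ligand that p53 also regulates, had 24, 23.9, 21.2 and 24.5 FPKM in doxorubicin libraries, against 4.02, 4.84, 3.33 and 3.8 FPKM in vehicle libraries. The 2 genes had differences of 1.42 ± 0.05 (adjusted p = 9.01e-12) and 2.29 ± 0.09 (adjusted p = 1.8e-11), with no overlap. Trp53 had 43.6, 41.8, 38.6 and 44.2 FPKM in doxorubicin libraries, against 52.5, 53.1, 53.3 and 52.2 FPKM in vehicle libraries (-0.32 ± 0.05, adjusted p = 2.88e-05). Mdm2, the ubiquitin ligase that degrades p53, had 70.1, 77.1, 70.9 and 77.1 FPKM in doxorubicin libraries, against 37.8, 41.9, 36.7 and 39.3 FPKM in vehicle libraries. Gdf15, a stress cytokine counted among p53 targets, was not called (-0.03 ± 0.11, adjusted p = 0.842). Targets that promote cell death were split. Pmaip1, which encodes Noxa, had 3.25, 2.89, 3.28 and 1.41 FPKM in doxorubicin libraries, against 0.378, 0.666, 0.622 and 0.59 FPKM in vehicle libraries, whereas Bbc3, which encodes Puma, was not called (0.21 ± 0.12, adjusted p = 0.159). Of 24 tested apoptosis regulators 8 were higher, 3 lower and 13 not called, against 25.6% higher and 23.7% lower over all genes tested. The vehicle values of 1 of the 24 were all under 1 FPKM, and the anti-apoptotic gene Mcl1 was among those not called.

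Among inhibitors and drivers of the G1 phase, cyclins D1 and D2 ran against cyclin E2. Of 21 tested genes 5 were higher, 9 lower and 7 not called, against 25.6% higher and 23.7% lower over all genes tested. Ccnd1, the cyclin D1 gene, had 170, 178, 144 and 144 FPKM in doxorubicin libraries, against 54, 56.6, 45.5 and 48.3 FPKM in vehicle libraries (1.62 ± 0.09, adjusted p = 7.95e-10). Ccnd2, the cyclin D2 gene, rose too (0.91 ± 0.06) and was named after its values were seen, while Ccnd3 was not called. Ccne2, a cyclin E gene, had 4.29, 2.67, 4.02 and 3.24 FPKM in doxorubicin libraries, against 8.63, 11.1, 8.07 and 12.6 FPKM in vehicle libraries (-1.28 ± 0.14, adjusted p = 1.57e-06). Cdkn2b, which encodes p15, had 31.3, 29.2, 27.5 and 36.1 FPKM in doxorubicin libraries, against 22.2, 18.1, 21.5 and 23.2 FPKM in vehicle libraries. Cdkn2a, the locus of p16 and p19Arf, had 6.53, 4.91, 6.68 and 7.3 FPKM in doxorubicin libraries, against 6.2, 6.84, 5.69 and 5.78 FPKM in vehicle libraries, with no call (0.04 ± 0.09, adjusted p = 0.774). These tables give Cdkn2a as 1 gene and do not separate p16 from p19Arf. The repressors E2f7 and E2f8, themselves expressed in dividing cells, fell by 1.11 ± 0.11 and 1.26 ± 0.09 on the log2 scale.

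The acute-phase genes Saa3 and Lcn2 were higher, with a wide range between libraries. Saa3 (chr7:46711998-46715700, minus strand), which encodes serum amyloid A3, had 1313, 790, 1415 and 2654 FPKM in doxorubicin libraries, against 115, 96.8, 155 and 256 FPKM in vehicle libraries. Lcn2, which encodes the siderophore-binding protein lipocalin 2, had 279, 226, 275 and 580 FPKM in doxorubicin libraries, against 66.4, 42.8, 73.3 and 131 FPKM in vehicle libraries. Replicate 4 was the highest and replicate 2 the lowest library in both groups for both genes, although the groups did not overlap. Differences were 3.27 ± 0.33 for Saa3 (adjusted p = 5.08e-07) and 2.11 ± 0.29 for Lcn2 (adjusted p = 1.74e-05). Of 31 tested NF-kB regulators and targets 17 rose, 5 at least 2-fold, 4 fell and 10 were not called, with a median of 0.24 against 0.015 over all genes tested, and 2 had all vehicle values under 1 FPKM. The adhesion molecule gene Icam1 had 67.1, 67.9, 60.1 and 65.1 FPKM in doxorubicin libraries, against 31.2, 32.2, 28.3 and 29.2 FPKM in vehicle libraries. Letters of an NF-kB site, GGG, any 2 bases and TTTCC on either strand, were found in 6 of 27 promoters of the list (22.2%), against 1.89% of all promoters and 2.04% of those of tested genes.

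Complement genes rose in nearly all tested members. Of 21 complement components and regulators 14 were tested, and 13 rose, 10 at least 2-fold, with 0 lower, a median of 1.63 and 2 with all vehicle values under 1 FPKM. C3 (chr17:57203970-57228136, minus strand), the central component, had 39.8, 37.2, 40.7 and 58.5 FPKM in doxorubicin libraries, against 6.83, 5.03, 6.39 and 8.14 FPKM in vehicle libraries. C1s1, a protease of the classical pathway, had 57.8, 52.9, 53.7 and 69.3 FPKM in doxorubicin libraries, against 12.1, 10.4, 12.7 and 13.3 FPKM in vehicle libraries. Cd55, which protects cells from complement, had 12.2, 13.8, 14 and 14.6 FPKM in doxorubicin libraries, against 3.14, 3.08, 2.91 and 2.35 FPKM in vehicle libraries. Activators and inhibitors were thus both higher, without overlap, at differences of 2.56 ± 0.14, 2.17 ± 0.08 and 1.92 ± 0.09 in that order. The properdin gene Cfp, at 1.15 to 1.95 FPKM in doxorubicin libraries and 1.05 to 1.57 FPKM in vehicle libraries, was the tested member without a call, except without doxorubicin replicate 1 (0.32, adjusted p = 0.0445).

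Chemokines were divided between those that rose and those that were not called. Of 26 genes 13 were tested, with 7 higher, 0 lower and 6 not called, a median of 0.48 and 3 with all vehicle values under 1 FPKM, and 12 reached 1 FPKM in no library. Ccl5, a T cell chemokine that interferon also induces, had 5.12, 5.93, 7.58 and 5.14 FPKM in doxorubicin libraries, against 0.276, 0.222, 0.399 and 0.88 FPKM in vehicle libraries. Cxcl10, an interferon-induced chemokine, had 1.23, 3.07, 1.34 and 3.14 FPKM in doxorubicin libraries, against 0.296, 0.109, 0.152 and 0.0651 FPKM in vehicle libraries. Both were without overlap, though Cxcl10 spread widely among doxorubicin libraries. The neutrophil chemokine Cxcl1 had 33, 30.8, 32.5 and 61.7 FPKM in doxorubicin libraries, against 42.3, 24.3, 31.8 and 55.5 FPKM in vehicle libraries, and was not called (0.04 ± 0.23, adjusted p = 0.903). Its relative Cxcl5 had 99.9, 76.5, 93.7 and 145 FPKM in doxorubicin libraries, against 79.7, 47, 62.8 and 140 FPKM in vehicle libraries. It was not called over all libraries (0.41 ± 0.25, adjusted p = 0.196) and was called without vehicle replicate 4 (0.70, adjusted p = 0.00891).

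Cytokines and growth factors of the senescent secretory phenotype were more often higher than lower, with interleukins 6 and 1 among those not higher. Il6, the interleukin-6 gene, had 2.11, 1.64, 1.31 and 3.17 FPKM in doxorubicin libraries, against 1.88, 1.38, 1.61 and 3.43 FPKM in vehicle libraries, and was not called (adjusted p = 0.994). Il1a and Il1b, which encode the interleukin-1 cytokines, were listed at 0 in all 8 libraries. Spp1, which encodes osteopontin, had 2106, 2024, 1657 and 2240 FPKM in doxorubicin libraries, against 558, 559, 423 and 516 FPKM in vehicle libraries. It was the most abundant of the raised cytokines, with a mean 3.90 times that of vehicle (1.96 ± 0.10, adjusted p = 4.32e-10). Il34, a ligand of the macrophage receptor Csf1r, had 9.86, 11.5, 9.05 and 10.9 FPKM in doxorubicin libraries, against 3.09, 2.78, 3.19 and 2.65 FPKM in vehicle libraries. Tnfrsf11b, which encodes osteoprotegerin, the decoy receptor that restrains osteoclasts, had 477, 481, 455 and 397 FPKM in doxorubicin libraries, against 201, 208, 157 and 174 FPKM in vehicle libraries. Of 24 tested cytokines and growth factors 15 were higher, 5 at least 2-fold, 3 were lower and 6 were not called, with a median of 0.43 and 1 with all vehicle values under 1 FPKM. Ptx3, which encodes pentraxin 3, was the member that fell at least 2-fold, to 128, 111, 123 and 160 FPKM in doxorubicin libraries against 300, 227, 258 and 344 FPKM in vehicle libraries, and it was named after its values were seen. Among 9 tested genes of the insulin-like growth factor system 5 were higher and 4 were not called. Igfbp3, a growth factor carrier, had 119, 124, 112 and 145 FPKM in doxorubicin libraries, against 37.7, 39.1, 44.8 and 46.4 FPKM in vehicle libraries. Igfbp4 had 43.2, 43.3, 83.9 and 48.7 FPKM in doxorubicin libraries, against 27.7, 25.9, 41.9 and 28.7 FPKM in vehicle libraries, and its call (0.77 ± 0.24, adjusted p = 0.0147) was lost without doxorubicin replicate 3 (0.55, adjusted p = 0.0564), where 3 genes of the list were higher.

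Matrix proteases and their inhibitors rose together. Of 26 matrix metalloproteinases, tissue inhibitors and plasminogen system genes 18 were tested, and 16 rose, 6 at least 2-fold, while 1 fell, with a median of 0.86 and 1 with all vehicle values under 1 FPKM. Mmp3 (chr9:7445822-7455975, plus strand), which encodes stromelysin 1, had 144, 116, 139 and 267 FPKM in doxorubicin libraries, against 16.2, 9.88, 14.6 and 25.5 FPKM in vehicle libraries. Mmp13, the collagenase of cartilage, had 314, 286, 290 and 512 FPKM in doxorubicin libraries, against 175, 135, 159 and 257 FPKM in vehicle libraries. As with Saa3, replicate 4 was highest and replicate 2 lowest in each group, and the groups did not overlap (3.25 ± 0.25 for Mmp3, adjusted p = 2.33e-08, and 0.94 ± 0.19 for Mmp13, adjusted p = 0.000542). Serpine2, an inhibitor of plasminogen activators and thrombin, had 938, 863, 969 and 1140 FPKM in doxorubicin libraries, against 228, 193, 234 and 284 FPKM in vehicle libraries. Timp2, an inhibitor of metalloproteinases, had 682, 652, 639 and 654 FPKM in doxorubicin libraries, against 217, 206, 213 and 219 FPKM in vehicle libraries. Timp2 was named after its values were seen, and its libraries were nearly level within each group (1.62 ± 0.04, adjusted p = 7.4e-13). The aggrecanase Adamts5 rose to 21.4, 19.6, 21.3 and 25 FPKM in doxorubicin libraries, against 10.4, 10.1, 9.84 and 12.2 FPKM in vehicle libraries (0.97 ± 0.08, adjusted p = 1.08e-07). The other aggrecanase, Adamts4, had 2.02, 2.12, 2.17 and 2.53 FPKM in doxorubicin libraries, against 1.67, 1.08, 1.85 and 2.07 FPKM in vehicle libraries, and was not called (0.28 ± 0.13, adjusted p = 0.0781), though it was without vehicle replicate 4 (0.35, adjusted p = 0.0387). Of 12 tested ADAMTS genes in all, 6 were higher, 1 lower and 5 not called, against 25.6% higher and 23.7% lower over all genes tested.

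The cartilage matrix changed gene by gene and not as a block. Of 28 tested genes 8 were higher, 10 lower and 10 not called, with a median of -0.07, and these shares lie near those of all genes. Acan (chr7:79053483-79115099, plus strand), which encodes the proteoglycan aggrecan, had 300, 327, 360 and 263 FPKM in doxorubicin libraries, against 560, 627, 722 and 570 FPKM in vehicle libraries. Its mean was 312 ± 41.1 FPKM in doxorubicin libraries and 620 ± 74.4 FPKM in vehicle libraries (SD, n = 4 each), a difference of -0.99 ± 0.10 (adjusted p = 5.2e-07). Partners of aggrecan and collagen II in the matrix fell with it: Hapln1, the link protein, by 0.91 ± 0.14, Matn3, matrilin 3, by 0.86 ± 0.12 and Col2a1 by 0.46 ± 0.10 on the log2 scale. Comp, an oligomeric matrix protein, had 955, 1079, 1239 and 985 FPKM in doxorubicin libraries, against 808, 893, 1141 and 895 FPKM in vehicle libraries, and was not called (0.19 ± 0.12, adjusted p = 0.204). Prg4 (chr1:150449412-150466165, minus strand), which encodes the joint lubricant lubricin, had 106, 93, 87.4 and 103 FPKM in doxorubicin libraries, against 22.8, 18.7, 19.2 and 23.7 FPKM in vehicle libraries. Prelp, a leucine-rich repeat proteoglycan, had 386, 336, 314 and 415 FPKM in doxorubicin libraries, against 101, 82.8, 92 and 113 FPKM in vehicle libraries. Both rose without overlap, by 2.16 ± 0.09 and 1.89 ± 0.10. The smaller secreted proteins of cartilage Otor (1.83 ± 0.14) and Cytl1 (1.40 ± 0.13) rose as well. Matrix levels also differed among replicates: the median score of the list was highest in replicate 3 of each group, at 0.24 in doxorubicin and 0.24 in vehicle, against -0.24 to -0.09 in the other doxorubicin libraries and -0.18 to 0.02 in the other vehicle libraries.

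Transcription factors of the lineage were more often lower than higher. Of 18 tested 8 were lower, 2 higher and 8 not called, against 23.7% lower and 25.6% higher over all genes tested. Sox9 fell by 0.29 ± 0.06 on the log2 scale (adjusted p = 0.00155), with no overlap. Sox8, its close relative, had 2.03, 1.82, 2.81 and 1.8 FPKM in doxorubicin libraries, against 4.95, 5.3, 6.09 and 4.78 FPKM in vehicle libraries. Runx2 and Runx3, which drive hypertrophy and bone formation, fell by 0.59 ± 0.09 and 0.80 ± 0.10.

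Hypertrophy and mineralization genes moved in both directions, with 8 higher, 5 lower and 2 not called of 15 tested. Over all genes tested 25.6% were higher and 23.7% lower. Col10a1, the collagen X gene that marks hypertrophic chondrocytes, had 27.6, 26.6, 22.7 and 21.7 FPKM in doxorubicin libraries, against 51.1, 59.9, 51.6 and 54.4 FPKM in vehicle libraries. Panx3, a channel gene of hypertrophic cells, had 6.74, 7.2, 7.64 and 6.61 FPKM in doxorubicin libraries, against 16, 17.3, 15.4 and 17.5 FPKM in vehicle libraries. Both fell without overlap, as did Alpl, the mineralization phosphatase (-0.82 ± 0.10), and Sp7, the osteoblast transcription factor (-0.92 ± 0.12). Col10a1 was named after its values were seen. The members that rose included Spp1 and Mmp13 and also Mgp, an inhibitor of calcification, at 456, 467, 567 and 553 FPKM in doxorubicin libraries against 207, 271, 355 and 216 FPKM in vehicle libraries, which was named after its values were seen. The osteocalcin gene Bglap2 had 3.18, 4.62, 6.72 and 6.37 FPKM in doxorubicin libraries, against 0.619, 0, 0.386 and 0.472 FPKM in vehicle libraries. Bglap and Bglap2 are close copies, and both had all vehicle values under 1 FPKM.

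Genes of fibrous matrix and contractility gave no common direction. The shares over all genes tested were 25.6% higher and 23.7% lower. Of 25 tested fibroblast matrix genes 10 were higher, 6 lower and 9 not called, with a median of 0.09. Dcn, which encodes the proteoglycan decorin, had 1279, 1331, 1539 and 1522 FPKM in doxorubicin libraries, against 470, 444, 500 and 554 FPKM in vehicle libraries. Lum, which encodes lumican, had 646, 630, 748 and 819 FPKM in doxorubicin libraries, against 277, 251, 275 and 328 FPKM in vehicle libraries. While these 2 rose without overlap, Col1a2, a chain of collagen I, had 982, 1009, 1078 and 1033 FPKM in doxorubicin libraries, against 947, 942, 1180 and 1181 FPKM in vehicle libraries, and was not called. Of 19 contractile and YAP target genes 5 were higher, 5 lower and 9 not called, with 1 whose vehicle values were all under 1 FPKM, and the YAP target Ccn2 was not called at a mean difference of -0.01 ± 0.07 (adjusted p = 0.879). Of 23 tested genes of the TGF-beta and BMP response 12 were higher, 1 lower and 10 not called, with a median of 0.25. Grem1, which encodes the BMP antagonist gremlin 1, led them with 50.6, 46.6, 59.3 and 57.6 FPKM in doxorubicin libraries, against 11.5, 13.4, 10.8 and 15.7 FPKM in vehicle libraries (1.98 ± 0.14, adjusted p = 6.86e-09). The member that fell was Tgfbi, a secreted protein induced by TGF-beta (-0.76 ± 0.08, adjusted p = 1.46e-06).

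Lysosome genes rose as a nearly complete group, most of them less than 2-fold. Lysosomes break down macromolecules with acid hydrolases, and raised lysosomal beta-galactosidase activity is a common stain for senescent cells. Of 50 genes 48 were tested, 46 rose, 11 at least 2-fold, 0 fell and 2 were not called, with a median of 0.71 and 0 whose vehicle values were all under 1 FPKM. Their median score lay between 0.67 and 0.71 in the 4 doxorubicin libraries and between -0.03 and 0.02 in the 4 vehicle libraries. Ctsd (chr7:142375911-142388038, minus strand), which encodes the aspartic protease cathepsin D, had 1141, 1274, 1203 and 1251 FPKM in doxorubicin libraries, against 480, 504, 490 and 447 FPKM in vehicle libraries. Gpnmb, a membrane glycoprotein of lysosomes, had 43.2, 43.6, 40.2 and 50 FPKM in doxorubicin libraries, against 9.19, 8.64, 7.63 and 7.95 FPKM in vehicle libraries. Glb1, the beta-galactosidase gene, had 35.5, 37.9, 35.5 and 40.1 FPKM in doxorubicin libraries, against 23.6, 21.1, 21.3 and 20.5 FPKM in vehicle libraries. In all 3 the groups were apart, with differences of 1.34 ± 0.05, 2.27 ± 0.08 and 0.76 ± 0.06 in that order, and Glb1 was named after its values were seen. The summed level of the list was 5750 to 5909 FPKM in doxorubicin libraries, against 3228 to 3394 FPKM in vehicle libraries. Tfeb, a transcription factor of lysosome genes, had 3.22, 4.72, 3.48 and 3.73 FPKM in doxorubicin libraries, against 3.2, 4.93, 4.43 and 4.83 FPKM in vehicle libraries, and was not called (-0.16 ± 0.14, adjusted p = 0.394). The CLEAR element, the palindrome it binds, was found in 1 of 37 promoters of the list (2.7%), against 0.37% of all and 0.847% of those of tested genes.

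Genes controlled by ATF4 fell, those of serine synthesis among them. ATF4 is the transcription factor of the amino acid response and raises amino acid transporters and the enzymes that make serine and one-carbon units. Of 32 tested genes of ATF4 and the unfolded protein response 27 fell, 11 at least 2-fold, 1 rose and 4 were not called, with a median of -0.72. Shmt2, the mitochondrial enzyme that takes one-carbon units from serine, had 73.5, 69.9, 72.1 and 70.6 FPKM in doxorubicin libraries, against 211, 198, 192 and 190 FPKM in vehicle libraries. Phgdh, the first enzyme of serine synthesis, had 90.2, 94.1, 101 and 82.1 FPKM in doxorubicin libraries, against 217, 212, 207 and 208 FPKM in vehicle libraries. Slc7a5, a transporter of large neutral amino acids, had 25.9, 26.8, 30.6 and 22.7 FPKM in doxorubicin libraries, against 79.3, 75.6, 78.4 and 76.3 FPKM in vehicle libraries. No values overlapped, and the differences were -1.45 ± 0.06, -1.20 ± 0.07 and -1.52 ± 0.08 in that order. The later enzymes of serine synthesis, Psat1 and Psph, fell by 1.13 ± 0.11 and 0.99 ± 0.08 on the log2 scale. Atf4 itself had 172, 127, 171 and 171 FPKM in doxorubicin libraries, against 223, 272, 223 and 266 FPKM in vehicle libraries (-0.62 ± 0.13, adjusted p = 0.00094). Ddit3, the stress factor CHOP that ATF4 can induce, had 66.6, 66.4, 64.9 and 65.6 FPKM in doxorubicin libraries, against 61.7, 61.6, 66.1 and 61.9 FPKM in vehicle libraries, and was not called (0.07 ± 0.07, adjusted p = 0.455). A second entry under the symbol Ddit3 did not pass the filter, with 1 FPKM reached in fewer than 4 of the 8 libraries, and was not tested. The chaperone Hspa5, a target of the unfolded protein response, fell less than the serine genes (-0.45 ± 0.10, adjusted p = 0.00191), a contrast between genes that was not tested. Phgdh, Psat1, Psph, Atf4, Ddit3 and Hspa5 were named after their values were seen. The letters TGATGNAA of a C/EBP and ATF site were found in 10 of 30 promoters of the list (33.3%), against 4.51% of all and 2.64% of those of tested genes.

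Sterol synthesis was lower as well. Of 30 tested genes of cholesterol and fatty acid synthesis 25 fell, 2 of them at least 2-fold, 0 rose and 5 were not called, with a median of -0.59. Fdps, which makes farnesyl pyrophosphate, had 25.8, 27.2, 27.4 and 25.7 FPKM in doxorubicin libraries, against 69.4, 63.7, 54.7 and 70.6 FPKM in vehicle libraries. It fell without overlap, by 1.25 ± 0.10 on the log2 scale. The desaturase Scd2 was the odd value out, with 24.2, 25.4, 104 and 28 FPKM in doxorubicin libraries against 58.9, 68.9, 73.1 and 62.2 FPKM in vehicle libraries. It was not called over all libraries (-0.82 ± 0.49, adjusted p = 0.18) and was called lower without doxorubicin replicate 3 (-1.31, adjusted p = 0.0201).

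Antioxidant genes were more often higher than lower, and genes of glycolysis and the hypoxia response more often lower than higher. Over all genes tested 25.6% were higher, 3.76% of all at least 2-fold, and 23.7% were lower. Of 28 tested genes of the NRF2 and antioxidant list 13 were higher, 5 at least 2-fold, 3 lower and 12 not called, with a median of 0.10. Those that rose included glutathione transferases and extracellular enzymes, such as Gsta4 at 12.5, 11.4, 14.6 and 13.6 FPKM in doxorubicin libraries against 3.43, 4.41, 3.84 and 2.86 FPKM in vehicle libraries. The standard NRF2 target Nqo1 had 22.3, 21.9, 22.8 and 20.6 FPKM in doxorubicin libraries, against 20.7, 23.9, 23 and 22.3 FPKM in vehicle libraries, and was not called (-0.04 ± 0.07, adjusted p = 0.726). Of 29 tested genes of glycolysis and the hypoxia response 14 were lower, 7 higher and 8 not called, with a median of -0.15. Slc2a1, the glucose transporter Glut1, had 52.8, 51.6, 56.7 and 83.1 FPKM in doxorubicin libraries, against 81.4, 121, 109 and 76.9 FPKM in vehicle libraries, and was called lower although doxorubicin replicate 4 lay above vehicle replicates 1 and 4 (-0.66 ± 0.15, adjusted p = 0.00137). Epas1, which encodes the hypoxia-inducible factor HIF-2 alpha, had 6.32, 5.78, 6.08 and 7.35 FPKM in doxorubicin libraries, against 2.59, 2.59, 2.13 and 2.23 FPKM in vehicle libraries.

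**Figure D4:**
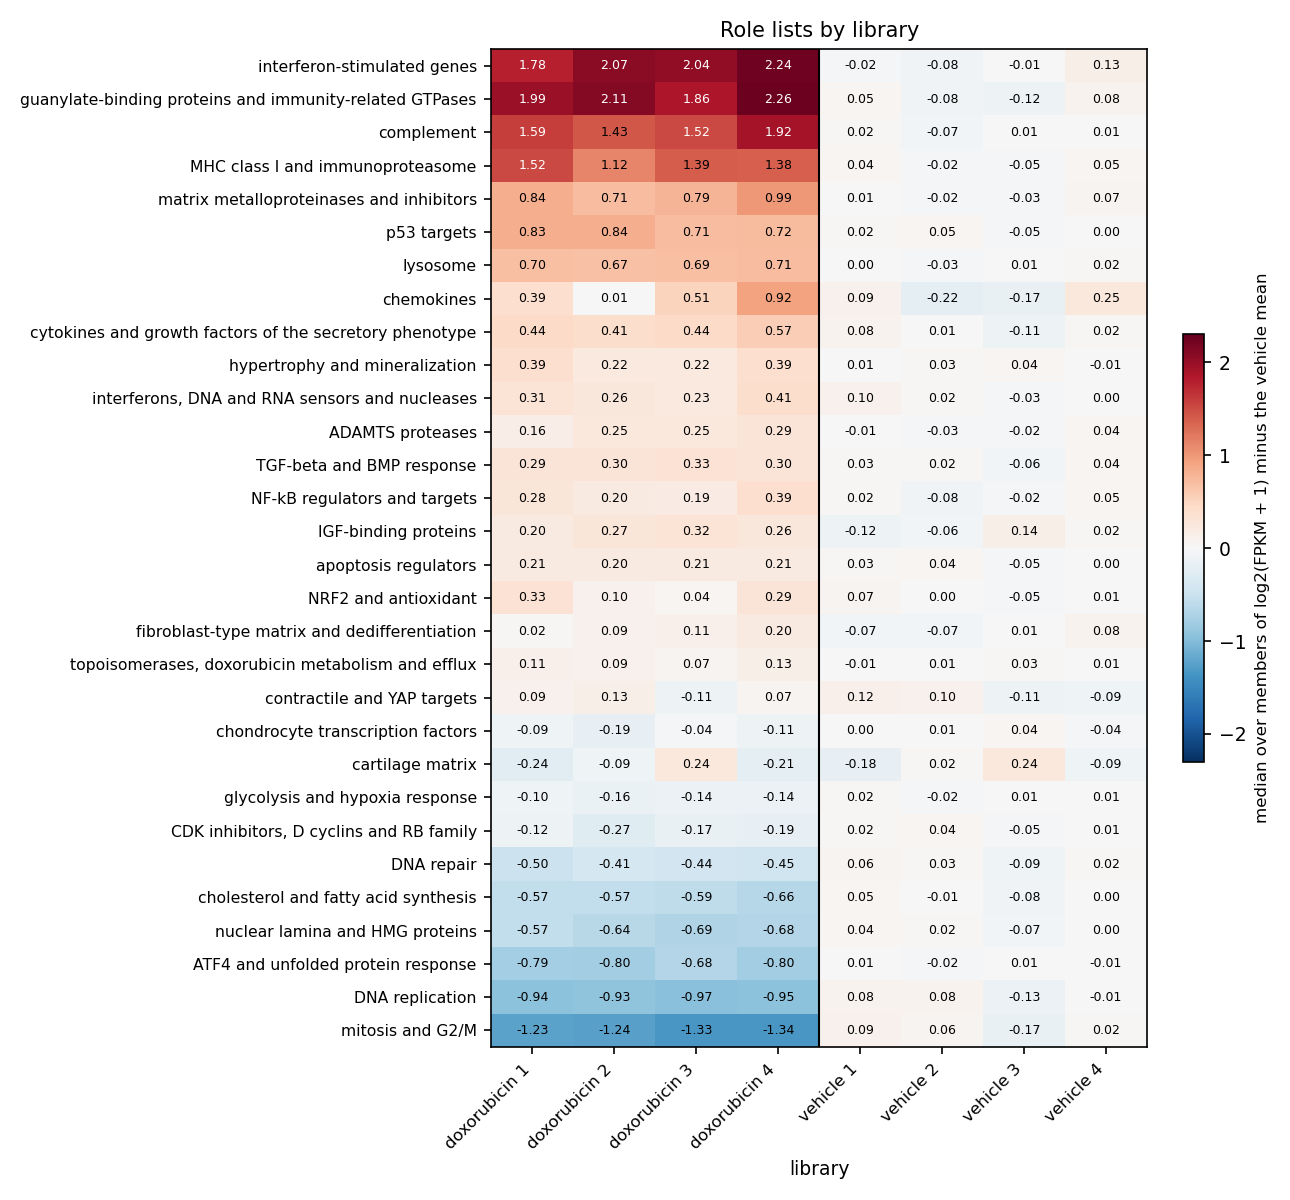
Score of each list of genes by role in each of the 8 libraries, the median over its tested members of log2(FPKM + 1) minus the mean of the 4 vehicle libraries, with doxorubicin libraries left and vehicle libraries right; red is above and blue below vehicle. Interferon-stimulated genes score 1.78 to 2.24 in doxorubicin libraries and mitosis genes -1.34 to -1.23, while chemokines range from 0.01 in doxorubicin replicate 2 to 0.92 in doxorubicin replicate 4.

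Marker lists of other cell types were read beside these results. Adipocyte genes stood out: 7 of 10 were tested and 7 rose, with a median of 1.77 and 3 whose vehicle values were all under 1 FPKM. Adipoq, which encodes the fat hormone adiponectin, had 14.1, 9.58, 15.5 and 16.3 FPKM in doxorubicin libraries, against 0.284, 0.047, 0 and 0.0864 FPKM in vehicle libraries. Fabp4, a fatty acid carrier, had 155, 116, 140 and 151 FPKM in doxorubicin libraries, against 29.1, 27.5, 34.5 and 33.9 FPKM in vehicle libraries. Both lay without overlap, at 3.73 ± 0.15 and 2.13 ± 0.09. Pparg, the transcription factor of fat cells, had 5.2, 6.3, 4.08 and 6.13 FPKM in doxorubicin libraries, against 3.96, 4.62, 3.49 and 3.64 FPKM in vehicle libraries, and was named after its values were seen. Its call (0.37 ± 0.13, adjusted p = 0.0264) was lost without doxorubicin replicate 2 or 4 or vehicle replicate 3 or 4, with adjusted p of 0.0854, 0.0794, 0.0711 and 0.0633 in that order. The summed level of the adipocyte list was 159 to 208 FPKM in doxorubicin libraries, against 38 to 43.2 FPKM in vehicle libraries. Its members that did not pass the filter, Cidec, Retn and the hormone gene Lep, were all listed at 0 in all 4 vehicle libraries. In doxorubicin libraries Cidec had 0.593 to 1.34 FPKM, Retn had 0.246 to 1.32 FPKM and Lep had at most 0.0426 FPKM.

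Of 9 markers of synovial fibroblasts, the lining cells next to cartilage, 5 were tested and 5 were higher, with 1 whose vehicle values were all under 1 FPKM. Over all genes tested 25.6% were higher and 23.7% lower. Besides Prg4 and Cd55, which other lists hold too, Pdpn, the podoplanin gene, had 45.9, 30.8, 38.8 and 65.1 FPKM in doxorubicin libraries, against 25.2, 14, 22.2 and 33.8 FPKM in vehicle libraries, so its values overlapped. The summed level of the list was 160 to 215 FPKM in doxorubicin libraries, against 50.5 to 77.4 FPKM in vehicle libraries. Of its members under the filter, Clic5 had 0.134 to 0.273 FPKM in doxorubicin libraries against 0.00887 to 0.0381 FPKM in vehicle libraries, without overlap. Dpp4 had 0.458 to 0.729 FPKM in doxorubicin libraries against 0.53 to 0.888 FPKM in vehicle libraries. Has1 had 0.272 to 0.456 FPKM against 0.169 to 0.686 FPKM in the same order. The values of Dpp4 and Has1 overlapped between the groups, and Pi16 was near 0 in both. Of 15 macrophage markers 5 were tested, with 3 higher, 1 lower and 1 not called, and 9 reached 1 FPKM in no library. The lysozyme gene Lyz2 had 10.3, 10.1, 12.4 and 10.8 FPKM in doxorubicin libraries, against 3.12, 2.34, 3.79 and 4.06 FPKM in vehicle libraries. Cd68 was higher as well (1.04 ± 0.15, adjusted p = 3.05e-05). Under the filter, Csf1r had 0.468 to 0.645 FPKM in doxorubicin libraries against 0.128 to 0.282 FPKM in vehicle libraries. Aif1 had 0.956 to 1.46 FPKM in doxorubicin libraries against 0 to 0.362 FPKM in vehicle libraries, and neither gene had overlapping values. Other defining macrophage markers were at or near 0: Adgre1 was at most 0.018 FPKM in doxorubicin libraries and 0.0172 FPKM in vehicle libraries, and Fcgr1 was listed at 0 in all 8. The summed macrophage list was 21.9 to 26.5 FPKM in doxorubicin libraries, against 11.1 to 13.2 FPKM in vehicle libraries. The part of adipocyte, synovial or macrophage cells in the results above was not tested. Of the remaining marker lists, 2 of 7 tested osteoblast markers were higher, with all vehicle values of 2 of the 7 under 1 FPKM, and 4 lower, and 2 of 3 osteoclast markers were higher and 1 lower. Of 5 tested tendon markers 1 was higher and 2 lower, among them Tnmd, the tenomodulin gene, with 4.04, 3.72, 6.5 and 5.55 FPKM in doxorubicin libraries against 14.4, 13.3, 16.6 and 19.2 FPKM in vehicle libraries. Among 3 tested skeletal muscle markers 1 was lower, among 3 keratinocyte markers 1 was higher, the single tested endothelial marker was not called, and 0 of 8 lymphocyte and 0 of 7 erythroid markers were tested.

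Doxorubicin was then set against bleomycin, the other DNA-damaging drug of the series, to show where its own effect departed from that of the second agent. This contrast does not use the vehicle libraries for its difference, but handling, dose and days since exposure differ along with the drug. Most genes were not called between the 2 drugs. Of the same 12389 genes 1290 differed (10.4%), 539 higher in doxorubicin (4.35%) and 751 lower (6.06%), and 50 differed at least 2-fold (0.404%), 48 of them higher (0.387%) and 2 lower (0.0161%). The balance of directions depends on scaling: it was 659 higher and 434 lower under median-of-ratios scaling, and 662 higher and 590 lower under quantile normalization. Without bleomycin replicate 1 the genes lower in doxorubicin numbered 483.

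Doxorubicin cells held more acute-phase, complement and adipocyte transcripts than bleomycin cells, and fewer transcripts of cell division. The largest excess was in Saa3, at 1543 ± 790 FPKM in doxorubicin libraries and 50.6 ± 15.8 FPKM in bleomycin libraries (SD, n = 4 each; 4.82 ± 0.33, adjusted p = 3.5e-07). Lcn2 averaged 340 ± 162 FPKM in doxorubicin libraries and 27.2 ± 3.89 FPKM in bleomycin libraries, and C3 averaged 44 ± 9.75 FPKM in doxorubicin libraries and 5.47 ± 0.732 FPKM in bleomycin libraries. The vehicle means of these 3 genes, 156, 78.4 and 6.6 FPKM, lay above those of bleomycin, a difference that was not tested here. Cxcl5, which was not called against vehicle, was higher in doxorubicin than in bleomycin (2.47 ± 0.25, adjusted p = 1.57e-05), and so were Il6 (1.13 ± 0.18, adjusted p = 0.000884) and Cxcl1 (2.09 ± 0.23, adjusted p = 3.21e-05). Of the tested list members, 8 of 14 complement, 13 of 31 NF-kB, 7 of 13 chemokine and 6 of 7 adipocyte genes were higher in doxorubicin. Over all genes tested 4.35% were higher in this contrast. Adipoq averaged 13.9 ± 2.98 FPKM in doxorubicin libraries and 4.06 ± 1.08 FPKM in bleomycin libraries (1.55 ± 0.15, adjusted p = 1.33e-05).

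In the other direction, 38 of 49 mitosis genes and 23 of 42 replication genes were lower in doxorubicin than in bleomycin, with medians of -0.53 and -0.35. Over all genes tested 6.06% were lower. Ccna2 averaged 7.41 ± 0.677 FPKM in doxorubicin libraries and 15.4 ± 0.564 FPKM in bleomycin libraries (-0.97 ± 0.08, adjusted p = 1.69e-06), and Lmnb1 averaged 3.91 ± 0.498 FPKM in doxorubicin libraries and 8.26 ± 0.462 FPKM in bleomycin libraries (-0.92 ± 0.09, adjusted p = 7.5e-06). The 2 genes at least 2-fold lower were Msmp and Smpd3. Msmp averaged 122 ± 14.8 FPKM in doxorubicin libraries and 289 ± 39.7 FPKM in bleomycin libraries, and Smpd3, a neutral sphingomyelinase, averaged 6.14 ± 1.65 FPKM in doxorubicin libraries and 13.8 ± 2.72 FPKM in bleomycin libraries. For other leading genes of the response the test found no difference between the drugs. It gave 0.39 ± 0.21 for Isg15 (adjusted p = 0.262), 0.12 ± 0.05 for Cdkn1a (adjusted p = 0.155), 0.08 ± 0.05 for Ctsd (adjusted p = 0.374) and 0.04 ± 0.10 for Acan (adjusted p = 0.858). A p above the threshold does not show that the drugs act alike on these genes. Over whole lists, 11 of 41 p53 targets, 7 of 33 interferon-stimulated genes and 4 of 6 guanylate-binding and immunity-related GTPase genes were higher in doxorubicin than in bleomycin, with medians of 0.12, 0.35 and 0.50, and 1, 1 and 0 were lower. In the other lists with a shared change against vehicle, 0 of 21 class I genes, 3 of 48 lysosome genes and 1 of 30 sterol genes were higher in doxorubicin, and 0, 1 and 0 were lower. These last counts lie near or below the shares over all genes tested, 4.35% higher and 6.06% lower.

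**Figure D5:**
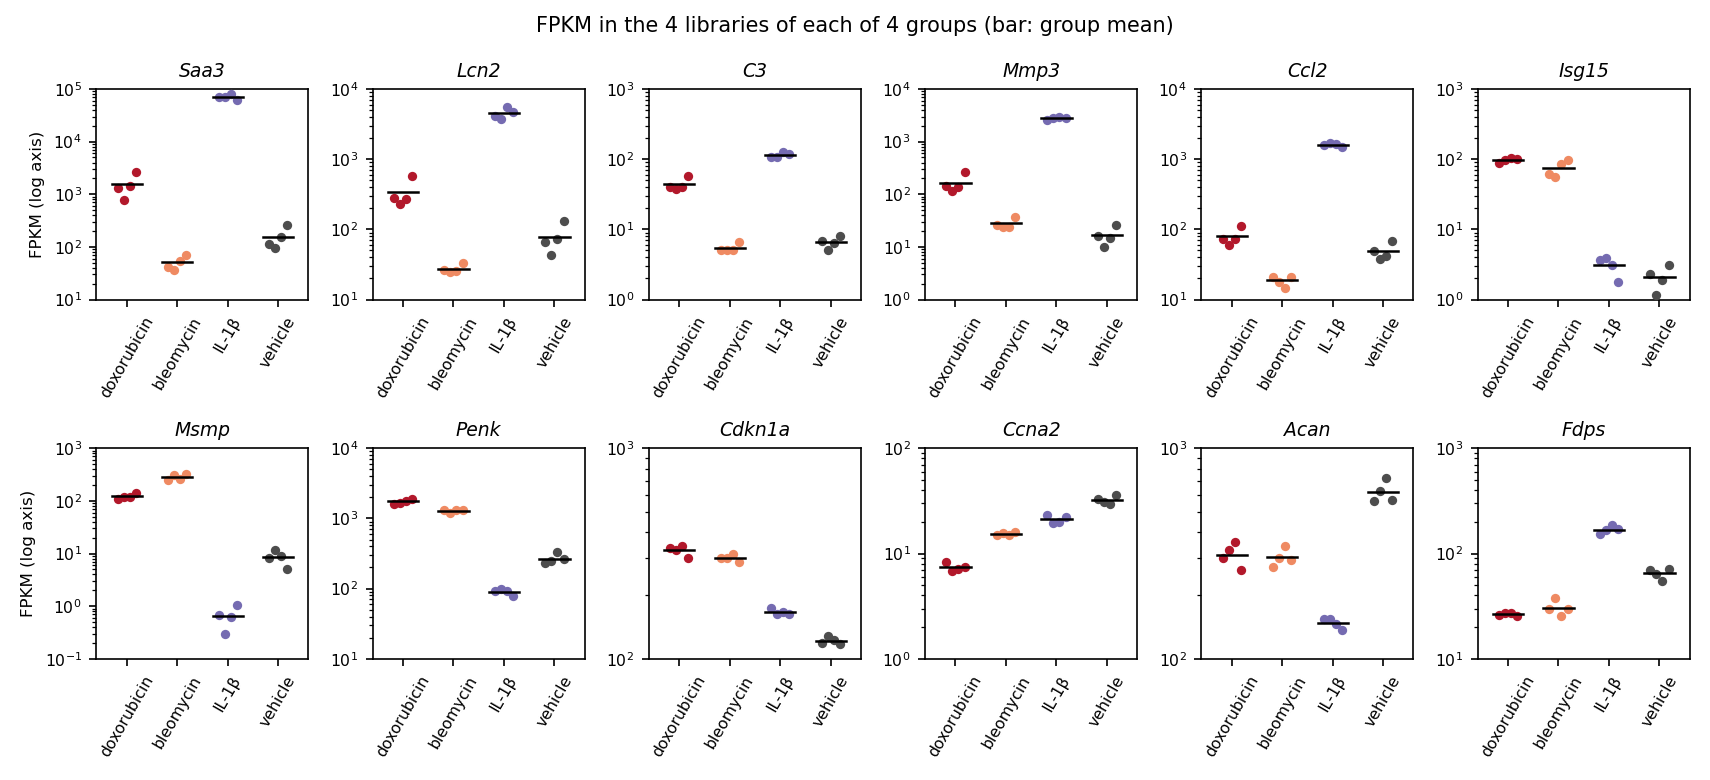
FPKM (log axis) of 12 genes by library in doxorubicin, bleomycin, IL-1β and vehicle cells, left to right in each panel, 4 points a group with a bar at the group mean. Saa3, Lcn2 and C3 stand higher in doxorubicin than in bleomycin and highest in IL-1β cells, while Isg15, Penk and Msmp are high in both drugs and low in IL-1β and vehicle cells.

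Against IL-1β, the inflammatory control of the study, doxorubicin differed in 6752 genes (54.5%), 3180 higher (25.7%) and 3572 lower (28.8%). Of the 910 at least 2-fold apart (7.35%), 495 were higher (4%) and 415 lower (3.35%). The 5 genes most in excess in doxorubicin were Msmp, Isg15, Penk, Adipoq and Ifit1. Isg15 differed by 4.60 ± 0.21 (adjusted p = 3.8e-11), and the whole list of interferon-stimulated genes was higher in 33 of 33 tested and the p53 targets in 23 of 41. The 5 genes most in deficit were Saa1, Saa3, Vnn1, Cxcl1 and Chil1, of which Saa3 averaged 1543 ± 790 FPKM in doxorubicin libraries and 70952 ± 7312 FPKM in IL-1β libraries (-5.65 ± 0.33, adjusted p = 6.09e-10). Chemokines were lower in 11 of 13 tested and NF-kB genes in 26 of 31. Cartilage matrix genes were higher in 24 of 28 and sterol synthesis genes lower in 26 of 30. Acan averaged 312 ± 41.1 FPKM in doxorubicin libraries and 148 ± 8.11 FPKM in IL-1β libraries (1.07 ± 0.10, adjusted p = 1.65e-07), and Fdps averaged 26.5 ± 0.92 FPKM in doxorubicin libraries and 169 ± 13.3 FPKM in IL-1β libraries (-2.63 ± 0.10, adjusted p = 6.88e-12). Lysosome genes had no shared direction in this contrast, with 19 of 48 higher and 17 lower.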

How the data were processed

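The deposited tables give FPKM per gene and library, made by the authors with Trimmomatic, STAR and genome build GRCm38, per the submitters' processing notes. The tool and annotation behind the FPKM values, and whether strand was used in counting, are not given in the sources used here, so overlapping genes on opposite strands, and close copies, are uncertain. Libraries were made from total RNA with a stranded mRNA kit, per the labels' protocols. Depth was estimated from the steps between low values, of which 65.0% to 69.2% were whole fragments within 0.1, so no count test was run. Gene positions come from GENCODE M21, matched for 55190 of 55450 identifiers.

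Differences were fitted with limma 3.58.1 (R 4.3.3) on log2(FPKM + 1) over 16 libraries in 4 groups, with a mean-variance trend and Benjamini-Hochberg adjustment over 12389 genes. The fit was tested on simulated data with known changes. Figures and counts used Python 3.11.15. The alternatives were other pseudocounts, filters and scalings, a fit to 8 libraries, a replicate block and leaving out each library.

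The gene lists (41 in all, 924 distinct genes, 758 of them tested, 34 in more than 1 list) were chosen with earlier results of these data known. Named genes were the 10 largest called changes each way without overlap, and 20 genes named whatever their result. They also include up to 4 called and 2 uncalled members of each list, genes found in 1 group only, the 5 most abundant genes of each group and the 5 largest differences each way from bleomycin and IL-1β. Every other gene with values in the text was chosen after its values were seen. Some genes are not reported here.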

Additional observations from a re-analysis of the deposited data

Results flagged for a closer look

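In 34 of 340 combinations of a group and 1 of 170 genes named in the text, 1 library lay far from the other 3. For normally distributed values chance flags about 1 in 20 groups, and genes of 1 library are not independent. That rate does not hold where the other 3 libraries are all listed at 0, because any value above 0 is then always flagged. This was so for Adgre1 in both groups, Cfd and Mx2 in vehicle, Ptprc in vehicle, and Ifnb1, Ifng and Lep in doxorubicin.

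Doxorubicin replicate 4 was high for inflammatory and secreted genes, with 58.5 FPKM of C3 against 37.2 to 40.7 FPKM in the other 3 doxorubicin libraries. It also held 580 FPKM of Lcn2 (others 226 to 279), 512 FPKM of Mmp13 (others 286 to 314), 61.7 FPKM of Cxcl1 (others 30.8 to 33) and 4.64 FPKM of the acute-phase gene Saa1 (others 1.48 to 1.79). The same library had 83.1 FPKM of Slc2a1 (others 51.6 to 56.7), 21 FPKM of Xdh (others 13 to 13.9) and 0.813 FPKM of Sp7 (others 1.07 to 1.11). C3, Lcn2 and Mmp13 were called without doxorubicin replicate 4. Vehicle replicate 4 was also the highest vehicle library for C3, at 8.14 FPKM, and for Lcn2, Mmp13, Cxcl1 and Xdh. For Slc2a1 it was the lowest vehicle library.

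Doxorubicin replicate 3 had 104 FPKM of Scd2 (others 24.2 to 28), 83.9 FPKM of Igfbp4 (others 43.2 to 48.7) and 51.2 FPKM of Sox9 (others 44.9 to 45.8). Doxorubicin replicate 2 had 127 FPKM of Atf4 (others 171 to 172). Doxorubicin replicate 1 had 13.6 FPKM of Stat2 (others 17.2 to 17.7), 71.9 FPKM of Gm49394 (others 0.0377 to 0.724) and 1.59 FPKM of Snord16a (others 0.00201 to 0.00417).

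Vehicle replicate 3, which also stood apart on the second principal component, had 12.8 FPKM of Bub1b (others 16.9 to 17.7), 6.23 FPKM of E2f8 (others 6.56 to 6.61) and 66.1 FPKM of Ddit3 (others 61.6 to 61.9). It had 3.83 FPKM of Sp7 (others 2.51 to 2.55), 0.824 FPKM of the pantetheinase gene Vnn1 (others 1.55 to 1.68), 446 FPKM of Gm49394 (others 151 to 185) and 0.0689 FPKM of Cfd (others listed at 0). Vehicle replicate 1 had 166 FPKM of Hapln1 (others 200 to 202) and 0.513 FPKM of Nlrc5 (others 0.175 to 0.205). Vehicle replicate 2 had 0.0679 FPKM of Irf7 (others 0.517 to 0.604) and 0.0257 FPKM of Mx2 (others listed at 0).

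Of these 34, 8 lay in genes that did not pass the filter. Doxorubicin replicate 1 had 1.46 FPKM of Aif1 (others 0.956 to 1.04), 0.411 FPKM of Cgas (others 0.599 to 0.625) and 0.0426 FPKM of Lep (others listed at 0). Doxorubicin replicate 4 had 0.0795 FPKM of Ifnb1 and 0.0403 FPKM of Ifng, both listed at 0 in the other 3 doxorubicin libraries. Adgre1 was at 0.018 FPKM in doxorubicin replicate 3 and at 0.0172 FPKM in vehicle replicate 4, and Ptprc at 0.0216 FPKM in vehicle replicate 2, with the other libraries of each group listed at 0.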

How the results depend on the processing

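Under the alternatives run, no named gene called against vehicle changed sign, but the balance of calls did: median-of-ratios scaling gave 2917 higher and 3319 lower than in vehicle, and quantile normalization 2911 higher and 3257 lower. Of the 305 named genes, 8 lost a call and 16 gained one under at least 1 alternative. Genes called at least 2-fold numbered 708 (466 higher, 242 lower), and became 1161 (754 higher, 407 lower) with a pseudocount of 0.1 and 1217 (785 higher, 432 lower) with 0.01. With a mean of at least 5 FPKM, which tested 8512 genes, they numbered 458 (282 higher), and 348 genes were higher than in bleomycin. Median-of-ratios scaling left 434 genes lower than in bleomycin, against 751 without it, and the cause was not tested. Of calls against vehicle, 51.9% were higher, compared with 46.8% under that scaling, 47.2% under quantile normalization and 57.3% with no filter (30086 genes tested).

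Leaving out each doxorubicin or vehicle library gave 5709 to 5868 calls against vehicle (2942 to 3071 higher, 2696 to 2846 lower) and 676 to 745 at least 2-fold (449 to 486 higher, 227 to 269 lower). Leaving out each doxorubicin library, or, chosen after seeing the data, each bleomycin or IL-1β library, gave 907 to 1129 against bleomycin (399 to 500 higher, 483 to 629 lower) and 6239 to 6444 against IL-1β (2932 to 3076 higher, 3288 to 3486 lower). Without 1 of doxorubicin replicates 1, 2 or 3, the 4 NF-kB genes called lower became 2.

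Same-numbered libraries deviated together with r of 0.069, 0.117, 0.063 and 0.026, and libraries of unlike number with r of -0.085 to 0.071. Doxorubicin replicates 1, 2 and 4 correlated best with the vehicle library of their own number, and replicate 3 with vehicle replicate 4 (0.071). The labels do not say whether libraries of the same number share a source, so the numbers were not taken as pairs. With the replicate number as a block, 6269 genes were called (3260 higher, 3009 lower), 5997 of them shared with the fit without it, and 1490 differed from bleomycin and 6869 from IL-1β. With the block, Comp (adjusted p = 0.0142) and Adamts4 (adjusted p = 0.0333) were called by limma. With 4 libraries a group and genes near 1 FPKM, small differences were not detectable.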

Other observations

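Replication-dependent histone genes ran against the other genes of S phase, in a list chosen after the values were seen. Of 65 such genes by symbol 15 were tested, and 14 were higher in doxorubicin, 0 lower, with a median difference of 1.25 and 4 whose vehicle values were all under 1 FPKM. Among those that were higher, Hist1h2al is annotated as a processed pseudogene, and H1f4 and H2bc6 overlap on the same strand, so their values are not independent. The untested H2ac14 is annotated as a pseudogene too. H2bc4 averaged 68.2 ± 6.42 FPKM in doxorubicin libraries and 15.3 ± 1.18 FPKM in vehicle libraries (SD, n = 4 each), and its bleomycin mean was 62.5 ± 1.62 FPKM. The linker histone gene H1f2 averaged 119 ± 8.84 FPKM in doxorubicin libraries and 56.4 ± 4.57 FPKM in vehicle libraries. Most replication-dependent histone transcripts lack a poly(A) tail, mRNA kits such as the one used select for that tail, and histone genes are close copies whose reads may be shared.

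Gene classes differed in their share of calls. Of 83 tested small nucleolar RNA genes 0 were higher and 55.4% were lower, with a median of -0.67, and of 417 processed pseudogenes 3.12% were higher and 31.7% lower. Of 119 long intergenic RNA genes 36.1% were higher and 10.9% lower, and of 94 antisense genes 31.9% were higher and 9.57% lower, against 26.4% and 23.7% of 11369 protein-coding genes. FPKM of genes shorter than a fragment, such as small RNAs, is unstable. By genomic span of protein-coding genes, 29% were higher and 15.9% lower among the longest (top decile, over 121 kb). Among the shortest (bottom decile, up to 4.74 kb) 28.4% were higher and 25.1% lower. Genes in the top 2 deciles of span were also set against the rest within quintiles of mean log2(FPKM + 1). They were less often higher in quintiles 1 (lowest) to 3 (28.1% against 33.4% in quintile 1). In quintiles 4 and 5 they were more often higher (32.8% against 25.2% in quintile 5). In every quintile they were less often lower.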
